A study of Mus musculus with 4 samples.

Results

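The proliferation genes described here are 40 genes whose products copy DNA or carry a cell through mitosis. They were chosen by name, with earlier results of these data known, and all 40 were found among the 25655 genes listed for each library. The question they address is how much RNA of dividing cells each sorted pool of cardiac neutrophils held. A dividing cell first loads the MCM helicase on its DNA and makes nucleotides for synthesis, and it then switches on cyclins, mitotic kinases, kinetochore proteins and spindle motors. Most of these genes are silenced in resting cells by RB-family and DREAM complexes and are switched on by E2F factors or by the MuvB complex with B-MYB and FOXM1. Neutrophils divide as precursors in the bone marrow and leave the cycle before they enter the blood, while macrophages, fibroblasts and endothelial cells of an injured heart can divide in place.

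The libraries came from hearts of male mice, 8 to 12 weeks old, taken 3 days after myocardial infarction and reperfusion (MI/R), which was made by closing a coronary artery for 1 hour and then opening it. WT mice were C57BL/6J, and *Cd300a-/-* mice carried a deletion of the inhibitory receptor gene *Cd300a* in every cell on a C57BL/6 background. CD45.2+ CD11b+ Ly6G+ cells were sorted into SiglecF-positive cells, called SiglecF hi, and SiglecF-negative cells, called SiglecF lo. Cells of 8 mice were pooled for each sorted sample, and each of the 4 groups was 1 library. No group below therefore has a replicate, and a difference between 2 groups cannot be told apart from a difference between 2 libraries. The subset difference was read in 2 pairs of libraries, 1 of each genotype, and the genotype difference in 2 pairs, 1 of each subset. Values in a row of 4 are given in the order WT SiglecF lo, *Cd300a-/-* SiglecF lo, WT SiglecF hi and *Cd300a-/-* SiglecF hi. Total gene counts were 9631901, 10988619, 19278243 and 17632989, so the SiglecF lo libraries were shallower, and 12931, 12777, 15160 and 14470 genes had at least 1 count.

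*Cd300a* itself was read with 3024, 28, 6640 and 27 counts, and was at 127, 1.06, 163 and 0.740 TPM, a scale that divides counts by gene length and brings each library to the same total. Both *Cd300a-/-* libraries were thus nearly free of it. *Siglecf* was at 11.3, 15.3, 354 and 405 TPM and was higher in both SiglecF hi libraries. *Ly6g*, a sorting marker of both subsets, was at 330.4, 889, 11.1 and 41.9 TPM. The Ly6G transcript was thus far lower in the SiglecF hi libraries than in the SiglecF lo libraries although both gates required the protein.

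The neutrophil list had the largest marker sum in every library, and markers of other heart cells were present beside it. The 7 neutrophil markers summed to 154340.0, 202680.0, 27432 and 32371 TPM, with *S100a9* the most abundant in each library. The 10 markers of macrophages and monocytes, all with counts in every library, summed to 3634, 3405, 7301 and 6559.5 TPM. *C1qb*, a complement gene typical of tissue macrophages and the most abundant of them in 3 libraries, was at 839, 754, 2257 and 2036 TPM. In WT SiglecF hi, *S100a8* and *S100a9* carried the neutrophil sum, at 10370 and 13719 TPM. The other neutrophil markers there, led by *Mmp9* at 1297 TPM, lay below *C1qa*, *C1qb* and *C1qc*, at 1908, 2257 and 1684 TPM. In *Cd300a-/-* SiglecF hi, *Mmp9* at 1684 TPM lay above *C1qc* at 1390 TPM but below *C1qa* and *C1qb*. The 7 fibroblast markers were likewise all counted and summed to 964, 979.8, 2088 and 1475 TPM, led by the matrix gene *Dcn* at 302, 249, 586 and 465 TPM. Both lists had larger sums in the SiglecF hi libraries, and the fibroblast sum was lower in *Cd300a-/-* than in WT within SiglecF hi.

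The 6 endothelial markers summed to 147, 52.0, 80.5 and 103 TPM, led by *Pecam1* at 57.5, 15.6, 23.2 and 30.4 TPM. That sum was lowest in *Cd300a-/-* SiglecF lo and highest in WT SiglecF lo. The 5 cardiomyocyte markers summed to 35.7, 24.5, 35.7 and 50.8 TPM, with *Myl2* on top in the SiglecF lo libraries and *Tnnt2* in the SiglecF hi libraries. The 5 erythroid markers, led by *Hba-a2*, summed to 1417, 780.5, 893 and 999.7 TPM, and both lists were also lower in *Cd300a-/-* SiglecF lo than in WT SiglecF lo.

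Markers of neutrophil precursors were low. The 10 precursor markers summed to 75.4, 74.2, 97.4 and 97.7 TPM, with *Cd34* the most abundant at 55.4, 27.3, 65.9 and 60.0 TPM, a gene that endothelial cells also use. The granule genes of early precursors were at or near 0: *Mpo* had 28, 7, 0 and 29 counts, *Elane* 0, 17, 2 and 0, *Ctsg* 0, 0, 0 and 14 and *Ms4a3* 0, 0, 1 and 0. *Prtn3* at 2.77, 10.9, 11.7 and 14.3 TPM and *Cebpe* at 9.57, 14.6, 16.7 and 17.8 TPM were low but not at 0. *Kit*, a receptor of progenitors and mast cells, had 31, 394, 69 and 60 counts and stood out in *Cd300a-/-* SiglecF lo. Of the 6 eosinophil markers, *Epx* had 0 counts in all 4 libraries, *Prg2* and *Ear1* had counts only in WT SiglecF hi, and *Ear2* made most of a sum of 173, 87.9, 116 and 119 TPM.

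Markers of T, NK and dendritic cells were low. The 7 markers of T and NK cells summed to 7.76, 11.7, 5.18 and 7.29 TPM, with *Cd3g* the most abundant in both SiglecF lo libraries, *Cd4* in WT SiglecF hi and *Cd3d* in *Cd300a-/-* SiglecF hi. *Cd3e*, *Cd3g*, *Cd4*, *Cd8a*, *Ncr1* and *Klrb1c* each had 0 counts in at least 1 library. The 5 dendritic cell markers summed to 12.8, 1.61, 4.51 and 7.03 TPM, with *Flt3*, *Xcr1*, *Clec9a* and *Cd209a* at 0 in a SiglecF lo library. The most abundant of them were *Cd209a* in WT SiglecF lo, *Zbtb46* in *Cd300a-/-* SiglecF lo and *Flt3* in both SiglecF hi libraries. What part any of these cell types had in the values of the proliferation genes was not tested.

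Low genes were counted unevenly in the SiglecF lo libraries. Of 2235 genes with 20 to 60 counts in WT SiglecF lo, 15.1% had 0 counts in *Cd300a-/-* SiglecF lo, and of 2176 such genes in *Cd300a-/-* SiglecF lo, 10.2% had 0 in WT SiglecF lo. The matching shares between the SiglecF hi libraries were 3.86% and 1.98%. The 95% intervals printed in parentheses below come from exact Poisson limits of the counts. They cover counting error only, since reads made by PCR are not independent molecules, and why more low genes stood at 0 between the SiglecF lo libraries was not tested. Of the 40 genes, 12 overlap another listed gene, and those of *Tk1*, *Ccna2*, *Ube2c*, *Kif20a* and *Prc1* are given beside their values.

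All 40 genes together made a small part of each library. They held 13019, 11197, 33698 and 26117 counts, which is 0.135% of all counts in WT SiglecF lo (0.133% to 0.138%, 95% Wilson interval), 0.102% in *Cd300a-/-* SiglecF lo (0.10% to 0.104%), 0.175% in WT SiglecF hi (0.173% to 0.177%) and 0.148% in *Cd300a-/-* SiglecF hi (0.146% to 0.150%). Their TPM, which corrects counts for gene length, summed to 1056, 799.5, 1631 and 1443. Both scales put the libraries in the same order, with *Cd300a-/-* SiglecF lo lowest and WT SiglecF hi highest. Fewer cycling cells and less RNA of these genes per cell cannot be told apart in pooled samples.

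*Tuba1b*, *Pcna*, *Hmgb2* and *Tubb5* made 77.5%, 80.7%, 71.6% and 75.2% of the summed TPM. *Hmgb2*, *Tuba1b*, *Tubb5* and *Stmn1* are also used outside the cell cycle, and without them the other 36 genes summed to 352, 238, 739 and 645 TPM. The median of the 40 genes was 4.38, 3.23, 10.7 and 7.09 TPM. Only 10, 7, 21 and 17 of the 40 exceeded 10 TPM. WT SiglecF hi had the highest TPM for 34 genes, beside 36.1% of the 11472 genes with a mean TPM above 1, and *Cd300a-/-* SiglecF lo had the lowest for 30, beside 45.1% of them.

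**Figure D1:**
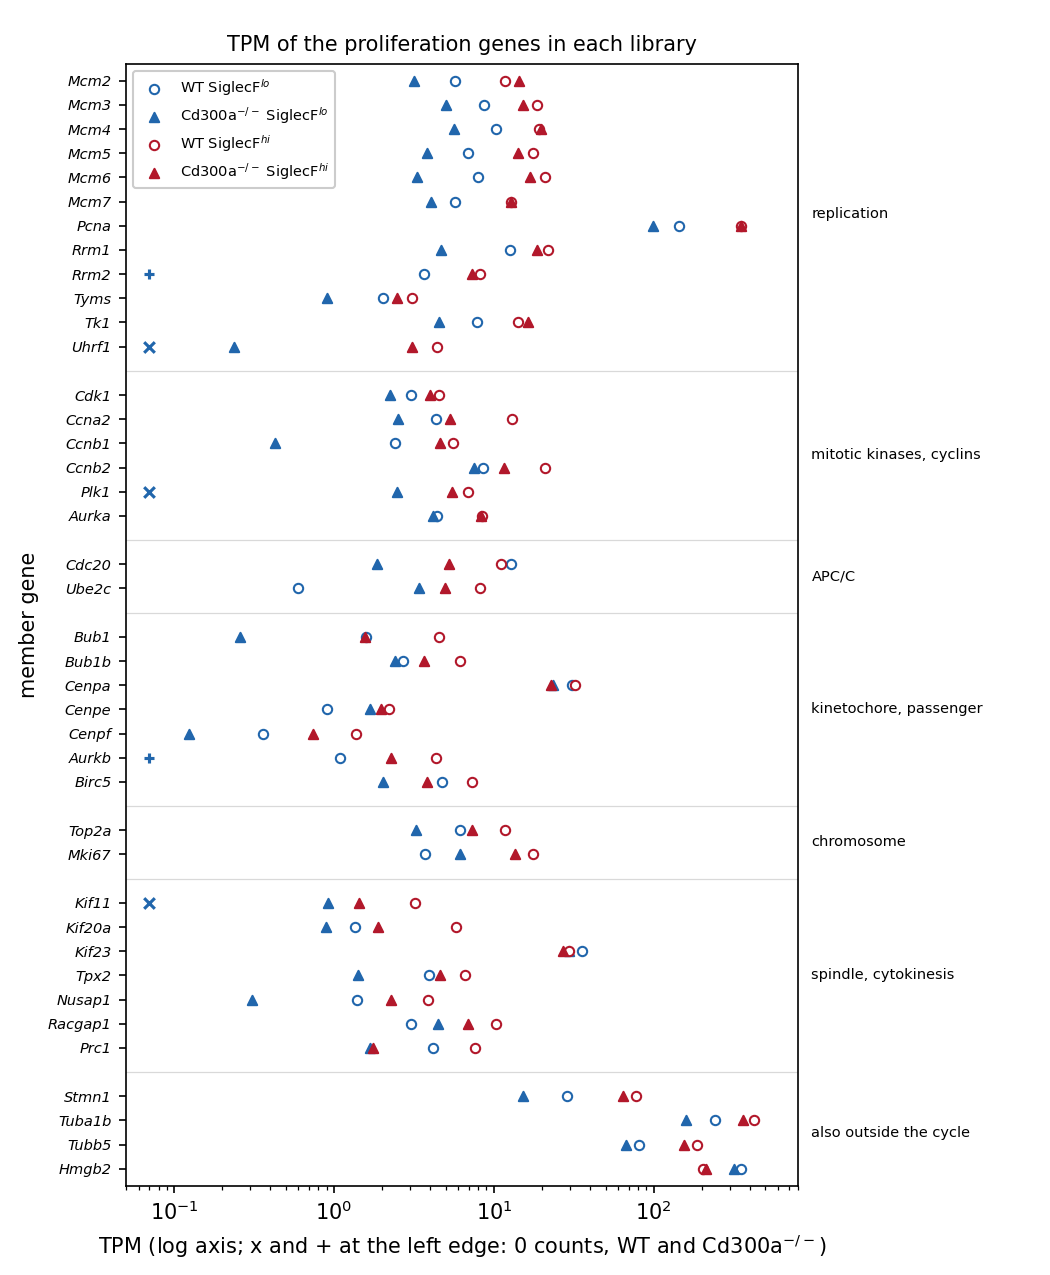
TPM of each of the 40 proliferation genes (rows, grouped by role) in the 4 libraries on a log axis, with circles for WT, triangles for *Cd300a-/-*, blue for SiglecF lo and red for SiglecF hi. Most genes lie under 20 TPM with red symbols to the right of blue ones, *Hmgb2* lies the other way round, and 5 genes have 0 counts in a SiglecF lo library (crosses at the left edge).

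Differences are given as the log2 ratio of TPM + 1 between 2 libraries, a scale that shrinks differences of genes with few reads, and a gene is counted as higher or lower past 0.5 on that scale. With a mean TPM over the 4 libraries above 10 required, 15 of the 40 genes were left among 6523 genes in all. With a mean above 1 required, 39 of the 40 were left among 11472, all but *Cenpf*. The 15 passed through high values in some library, so their counts stand beside those of the larger set and not for all 40.

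*Cd300a-/-* SiglecF lo held less of these transcripts than WT SiglecF lo. Of the 39 genes, 22 were lower past 0.5 and 4 were higher, while 24.5% and 20.7% of all genes tested were lower and higher. Of the 15 genes with a mean above 10, 9 were lower and 1 was higher, beside 19.9% and 16.4% of all genes. The median log2 ratio was −0.60 over the 15 genes and also −0.60 over all 40, against −0.02 over all 6523 genes. With the 5 genes at 0 set to 3 counts the median over the 40 was −0.60 as well, since none of them crossed it, and over the 7 genes above 10 TPM in both libraries it was −0.38. Summed TPM gave −0.40 for the 40 genes and −0.57 for the 36 that exclude *Hmgb2*, *Tuba1b*, *Tubb5* and *Stmn1*. In the same pair of libraries the summed markers of endothelial cells had a log2 ratio of −1.50, those of cardiomyocytes −0.55, of erythroid cells −0.86, of eosinophils −0.97, of dendritic cells −2.99, of T and NK cells 0.59, of neutrophils 0.39, of neutrophil precursors −0.02, of macrophages −0.09 and of fibroblasts 0.02. On CPM scaled by TMM, which does not divide by gene length, the cardiomyocyte sum gave −2.35 and the dendritic sum −1.50, and *Ttn*, a long gene of the cardiomyocyte list, had 1538, 169, 90 and 226 counts. Several sums joined markers that went apart: *Fcgr1* at −1.22 and *Mrc1* at 0.66 for macrophages, *Postn* at 0.81 and *Dcn* at −0.28 for fibroblasts, *Kit* at 2.73 and *Cd34* at −0.99 for precursors, and *Cd3d* at 0.98 and *Ncr1* at −1.10 for T and NK cells. For dendritic cells *Cd209a* and *Clec9a* lay at −3.52 and −1.27, but *Flt3*, *Xcr1* and *Zbtb46* at 0.42, 0.40 and 0.08. For erythroid cells *Hba-a2* lay at −0.97 and *Hbb-bt* at 0.78. A sum near 0 thus does not show that its markers were level. What part these cell types had in the lower values was not tested.

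Between the SiglecF hi libraries the genotype difference was smaller for replication genes and clearer for mitotic genes. None of the 39 genes was higher past 0.5 in *Cd300a-/-* SiglecF hi and 14 were lower, where 7.03% of all genes tested were higher and 7.93% lower. All 14 belong to the mitotic roles, and none is among the 12 replication genes. Among the 15 genes with a mean above 10 only *Ccnb2* was lower and none was higher, beside 3.46% lower and 3.31% higher among all genes. The median was −0.26 over the 15 genes and −0.30 over all 40, with 0.04 over all 6523 genes. Summed markers of fibroblasts had a log2 ratio of −0.50 in this pair and those of macrophages −0.15. The ratio was 0.36 for endothelial cells, 0.51 for cardiomyocytes, 0.64 for dendritic cells and 0.49 for T and NK cells. It was 0.24 for neutrophils, 0.16 for erythroid cells, 0.03 for eosinophils and 0.004 for neutrophil precursors. What these cell types add to the 14 genes was not tested.

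The SiglecF hi libraries held more of these transcripts than the SiglecF lo libraries in both genotypes, on a scale on which most genes were also higher. The median of all 6523 genes was 0.53 in WT and 0.61 in *Cd300a-/-*, in libraries where *S100a8* and *S100a9* took 13.8% and 17.3% of all TPM in SiglecF lo but 2.41% and 2.78% in SiglecF hi. Centred values, with that median subtracted, are therefore given beside the plain ones. In WT, 33 of the 39 genes were higher in SiglecF hi past 0.5 and 1 was lower, beside 54.4% of all genes higher and 9.38% lower. After centring on the median of the same genes 16 were higher and 4 lower, beside 23.6% higher and 23.9% lower. Of the 15 genes with a mean above 10, 12 were higher beside 51.9% of all genes, or 7 beside 19.3% after centring. The median over the 15 was 1.02, or 0.49 centred, and over all 40 it was 0.96, or 0.44 centred.

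In *Cd300a-/-* mice, 31 of the 39 genes were higher in SiglecF hi than in SiglecF lo and 1 was lower, beside 57.9% of all genes higher and 8.48% lower. After centring, 18 were higher and 4 lower, beside 23.6% of all genes higher and 24.7% lower. Of the 15, 12 were higher beside 56.6% of all genes, or 10 beside 21.2% after centring. The median over the 15 was 1.44, or 0.82 centred, and over all 40 it was 1.03, or 0.41 centred. The centred medians differed between roles: in *Cd300a-/-* they were 1.08 for replication genes, 0.23 for mitotic kinases and cyclins, 0.17 for genes of the anaphase-promoting complex, 0.02 for kinetochore and passenger genes, 0.38 for the chromosome genes *Mki67* and *Top2a*, −0.10 for spindle and cytokinesis genes and 0.58 for the 4 genes also used outside the cycle. In WT the same medians were 0.47, 0.54, 0.64, 0.28, 0.89, 0.50 and 0.47. The anaphase-promoting complex had only 2 genes, which went apart, so its median is a midpoint. Centred, *Cdc20* lay at −0.72 in WT and 0.51 in *Cd300a-/-*. *Ube2c*, with 8 counts in WT SiglecF lo, lay at 2.00 and −0.18. Summed TPM of all 40 genes gave 0.63 in WT and 0.85 in *Cd300a-/-*, which shrank to 0.10 and 0.24 when centred. Each SiglecF hi value exceeded both SiglecF lo values for 33 of the 40 genes (82.5%), and the same held for 64.3% of the 11472 genes with a mean TPM above 1.

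Summed macrophage markers were higher in SiglecF hi by 1.01 in WT and 0.95 in *Cd300a-/-*, and fibroblast markers by 1.11 and 0.59, all in log2 units without centring. On TMM-scaled CPM the macrophage ratios were 0.38 and 0.33, and the fibroblast ratios 0.60 and −0.05, so the fibroblast sum was not higher there in *Cd300a-/-*. *C1qa*, *C1qb* and *C1qc* made most of the macrophage sum in SiglecF hi, while *Ly6c2*, a monocyte gene of the same list, was lower in SiglecF hi, at −1.48 and −1.64, and *Ccr2* lay near 0. Other marker sums had log2 TPM ratios of −2.49 in WT and −2.65 in *Cd300a-/-* for neutrophils, −0.58 and −0.68 for T and NK cells, −0.87 and 0.99 for endothelial cells, −1.50 and 2.13 for dendritic cells and −0.00 and 1.05 for cardiomyocytes, the last −2.79 and 0.32 on TMM-scaled CPM. The log2 ratios of erythroid cells were −0.67 and 0.36, of eosinophils −0.57 and 0.44 and of neutrophil precursors 0.37 and 0.40, and on TMM-scaled CPM all of these were below 0, at −1.16 and −0.20, −0.96 and −0.02 and −0.26 and −0.38. The T and NK sum also joined markers that went apart, with *Cd3g* at −1.48 in WT and −2.74 in *Cd300a-/-*, and *Cd4* at 1.64 and 0.80. What part the cell types of these lists had in the difference was not tested.

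The 12 replication genes, which unwind DNA, clamp the polymerase and make nucleotides, summed to 215, 135, 506 and 492 TPM, of which *Pcna* made the greater part. In SiglecF lo, 11 of the 12 were lower in *Cd300a-/-* than in WT and 10 of them past 0.5, beside 51.2% of all 11472 genes with a mean above 1 below 0 and 24.5% past 0.5, with a median of −0.68. In SiglecF hi the 12 genes spread from −0.41 to 0.27 between the genotypes, with a median of −0.18. From SiglecF lo to SiglecF hi all 12 were higher, as were 78.7% of all genes in WT and 80.5% in *Cd300a-/-*, with a median of 1.00 in WT and 1.69 in *Cd300a-/-*, or 0.47 and 1.08 centred, and *Tyms* in WT was the only one of them below 0 once centred, at −0.10.

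*Mcm2* to *Mcm7* encode the 6 subunits of the ring that opens the DNA helix, and they were read at similar levels. *Mcm2* was at 5.68, 3.17, 11.7 and 14.3 TPM (99, 61, 349 and 381 counts). *Mcm3* was at 8.67, 5.01, 18.6 and 15.2 TPM (135, 86, 494 and 363 counts), and *Mcm4* was at 10.4, 5.65, 19.3 and 19.8 TPM (191, 115, 608 and 558 counts). Every subunit was lowest in *Cd300a-/-* SiglecF lo and second lowest in WT SiglecF lo. *Mcm5* had 6.92, 3.83, 17.7 and 14.1 TPM from 123, 75, 536 and 384 counts. *Mcm6*, on the minus strand (ENSMUSG00000026355, chr1:128259327-128287401, GRCm39), had 7.96, 3.31, 20.9 and 16.9 TPM from 179, 82, 803 and 581 counts. Its ratio of *Cd300a-/-* to WT was the furthest from 0 of the 6, at −1.06 (−1.37 to −0.75) in SiglecF lo, against −0.29 (−0.44 to −0.14) in SiglecF hi. *Mcm7* had 5.71, 4.07, 12.9 and 12.9 TPM from 108, 85, 417 and 372 counts and the smallest difference of the 6 in SiglecF lo, −0.40 (−0.75 to −0.06). *Mcm2* was the only one of them higher in *Cd300a-/-* SiglecF hi with an interval above 0, at 0.27 (0.07 to 0.46).

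*Pcna*, the sliding clamp of DNA polymerases, also serves DNA repair and is kept in the cytosol of mature neutrophils. It was the most abundant replication gene at 143, 99.4, 353 and 351 TPM from 1117, 855, 4705 and 4187 counts (ENSMUSG00000027342, chr2:132091082-132095234, minus strand, GRCm39). The *Cd300a-/-* to WT ratio was −0.52 (−0.65 to −0.39) in SiglecF lo and −0.01 (−0.07 to 0.05) in SiglecF hi, so the SiglecF hi libraries had nearly equal levels. The ratio of SiglecF hi to SiglecF lo was 1.30 (1.20 to 1.39) in WT and 1.81 (1.71 to 1.92) in *Cd300a-/-*, or 0.77 and 1.20 centred.

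*Rrm1* and *Rrm2* form ribonucleotide reductase, which makes the deoxynucleotides for DNA. *Rrm1* was at 12.7, 4.68, 21.7 and 18.6 TPM (265, 108, 777 and 594 counts), lower in *Cd300a-/-* SiglecF lo by a log2 ratio of −1.27 (−1.55 to −0.99). *Rrm2*, the subunit tied to S phase, was at 3.68, 0, 8.24 and 7.33 TPM (45, 0, 172 and 137 counts). With 3 counts taken as the limit that a count of 0 allows, and with the other count of each such pair taken as read, *Rrm2* was at least 16.5-fold lower in *Cd300a-/-* SiglecF lo than in WT SiglecF lo. Such bounds, here and below, cover counting error only. Of genes with 20 to 60 counts in WT SiglecF lo, 15.1% had 0 in *Cd300a-/-* SiglecF lo, so they are no firm minimum. Between the SiglecF hi libraries the interval of *Rrm2* held 0, at −0.15 (−0.44 to 0.14). *Tyms*, thymidylate synthase, was at 2.04, 0.900, 3.08 and 2.47 TPM (41, 20, 106 and 76 counts), and *Tk1*, the cytosolic thymidine kinase, at 7.84, 4.53, 14.2 and 16.4 TPM (58, 37, 179 and 185 counts). Both were lower in *Cd300a-/-* SiglecF lo, at −0.68 (−1.10 to −0.23) and −0.68 (−1.20 to −0.15), and both SiglecF hi intervals held 0. *Tk1* lies within *Gm20708* of the opposite strand, which had 14, 16, 0 and 0 counts, and shares 169 bases with *Afmid*, which had 15, 21, 62 and 56 counts. *Uhrf1*, which carries DNA methylation through replication, was at 0, 0.236, 4.44 and 3.09 TPM (0, 5, 146 and 91 counts). It was nearly unread in either SiglecF lo library. On the same 3-count limit the WT SiglecF hi level was above that of WT SiglecF lo by at least 28.5-fold.

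The mitotic kinases and their cyclins summed to 22.8, 19.4, 59.2 and 39.3 TPM over 6 genes. *Cdk1*, the kinase that starts mitosis, was at 3.05, 2.26, 4.55 and 4.02 TPM (71, 58, 181 and 143 counts; ENSMUSG00000019942, chr10:69170976-69188768, minus strand). Neither genotype comparison separated its levels, at −0.31 (−0.68 to 0.06) in SiglecF lo and −0.15 (−0.41 to 0.11) in SiglecF hi. Centred on all genes its subset ratios lay near 0 too, at −0.07 in WT and 0.01 in *Cd300a-/-*. *Aurka*, a kinase of the spindle poles, was at 4.41, 4.18, 8.46 and 8.33 TPM (44, 46, 144 and 127 counts) with genotype ratios of −0.06 and −0.02. Between the SiglecF hi libraries the genotype ratios of *Ccna2*, *Ccnb1* and *Ccnb2*, cyclins that bind CDK1, lay further from 0 than that of *Cdk1*. Between the SiglecF lo libraries *Ccnb2* lay nearer to 0 than *Cdk1*, at −0.16 against −0.31.

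*Ccna2*, cyclin A of S and G2 phase, was at 4.35, 2.53, 12.9 and 5.34 TPM (81, 52, 411 and 152 counts). It was lower in *Cd300a-/-* SiglecF hi by −1.14 (−1.37 to −0.90) and in *Cd300a-/-* SiglecF lo by −0.60 (−0.99 to −0.21). *Ccna2* overlaps *Exosc9* on the opposite strand for 863 bases, and reads of the shared stretch cannot be told apart without strand. *Exosc9* had 196, 79, 354 and 331 counts, and was thus also lower in *Cd300a-/-* SiglecF lo than in WT SiglecF lo. *Ccnb2*, a B-type cyclin of mitosis, was at 8.52, 7.49, 20.8 and 11.6 TPM (67, 65, 279 and 139 counts; ENSMUSG00000032218, chr9:70314974-70328829, minus strand), with −0.79 (−1.07 to −0.52) between the SiglecF hi libraries and −0.16 (−0.61 to 0.29) between the SiglecF lo libraries. Both cyclins were higher in WT SiglecF hi than in the other 3 libraries. *Ccnb1*, the other B-type cyclin, was at 2.42, 0.425, 5.59 and 4.60 TPM (31, 6, 122 and 90 counts), and its difference lay in SiglecF lo, at −1.26 (−1.75 to −0.69), or −2.26 with 0.1 TPM added in place of 1. *Plk1*, a kinase of mitotic entry, was at 0, 2.49, 6.94 and 5.44 TPM (0, 31, 134 and 94 counts). On the 3-count limit for its 0 in WT SiglecF lo, *Plk1* was at least 9.37-fold higher in *Cd300a-/-* SiglecF lo. Of genes with 20 to 60 counts in *Cd300a-/-* SiglecF lo, 10.2% had 0 in WT SiglecF lo, so this bound is no firm minimum. Of the other genes of this role, only *Ccna2* and *Ccnb1* had intervals below 0 between the SiglecF lo libraries, and those of *Cdk1*, *Ccnb2* and *Aurka* held 0.

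*Cdc20* and *Ube2c* act in the anaphase-promoting complex, which marks cyclins and securin for destruction. *Cdc20*, its activator, was at 12.8, 1.87, 11.1 and 5.25 TPM (118, 19, 174 and 74 counts). The interval between the WT libraries held 0, at −0.20 (−0.51 to 0.12) from SiglecF lo to SiglecF hi, and *Cd300a-/-* was lower in SiglecF lo by −2.27 (−2.76 to −1.75) and in SiglecF hi by −0.95 (−1.30 to −0.60). *Ube2c*, its ubiquitin-conjugating enzyme, was at 0.599, 3.39, 8.20 and 4.95 TPM (8, 50, 187 and 101 counts). It was higher in *Cd300a-/-* SiglecF lo than in WT SiglecF lo, 1.46 (0.91 to 1.93), and lower in *Cd300a-/-* SiglecF hi than in WT SiglecF hi, −0.63 (−0.93 to −0.33). With 0.1 TPM added in place of 1 the SiglecF lo ratio was 2.32. *Ube2c* shares 1662 bases with *Tnnc2* on the opposite strand, which had 33, 0, 0 and 0 counts.

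The 7 kinetochore and passenger genes, whose products attach chromosomes to the spindle and check the attachment, summed to 42.2, 29.8, 57.9 and 36.7 TPM. All 7 were lower in *Cd300a-/-* SiglecF hi than in WT SiglecF hi, 4 of them past 0.5, beside 46.2% of all genes below 0 and 7.93% past 0.5. *Cenpa*, the histone variant of centromeres, made most of the sum and was at 30.8, 23.4, 32.1 and 22.7 TPM (283, 237, 504 and 319 counts; ENSMUSG00000029177, chr5:30824121-30832174, plus strand). Its level was lower in *Cd300a-/-* in both subsets, at −0.38 (−0.63 to −0.14) and −0.48 (−0.68 to −0.29), and the interval between the subsets held 0, at 0.06 (−0.15 to 0.27) in WT. Centred on all genes, *Cenpa* was lower in SiglecF hi, at −0.47 in WT and −0.65 in *Cd300a-/-*.

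*Bub1*, a checkpoint kinase, was at 1.59, 0.257, 4.52 and 1.56 TPM (28, 5, 136 and 42 counts), with −1.04 (−1.45 to −0.56) in SiglecF lo and −1.11 (−1.45 to −0.76) in SiglecF hi between genotypes, and −2.24 in SiglecF lo with 0.1 TPM added in place of 1. *Bub1b*, its partner BubR1, was at 2.71, 2.40, 6.12 and 3.68 TPM (51, 50, 197 and 106 counts), with −0.12 (−0.54 to 0.30) in SiglecF lo and −0.61 (−0.89 to −0.32) in SiglecF hi. *Birc5*, survivin of the passenger complex, was at 4.75, 2.02, 7.27 and 3.82 TPM (83, 39, 217 and 102 counts) and lower in *Cd300a-/-* by −0.93 in SiglecF lo and −0.78 in SiglecF hi. Its kinase *Aurkb* was at 1.10, 0, 4.37 and 2.28 TPM (11, 0, 75 and 35 counts). The 0 in *Cd300a-/-* SiglecF lo put *Aurkb* at least 4.05-fold below WT SiglecF lo if its 11 counts there are taken as read, a low number with a wide interval of its own, and in SiglecF hi the ratio was −0.71 (−1.15 to −0.27). Transcripts of the large kinetochore proteins were among the lowest: *Cenpe*, a motor, was at 0.910, 1.67, 2.20 and 1.98 TPM (37, 75, 153 and 123 counts), and *Cenpf* at 0.360, 0.124, 1.38 and 0.741 TPM (21, 8, 137 and 66 counts). *Cenpe* was the only one of the 7 above 0 in *Cd300a-/-* SiglecF lo, at 0.48 (0.17 to 0.79), or 0.81 with 0.1 TPM added in place of 1.

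*Mki67* and *Top2a*, the usual markers of cycling cells, gave different answers in SiglecF lo. *Mki67*, which coats mitotic chromosomes, was at 3.69, 6.17, 17.7 and 13.6 TPM (191, 352, 1561 and 1077 counts; ENSMUSG00000031004, chr7:135291513-135318090, minus strand). It was higher in *Cd300a-/-* SiglecF lo than in WT SiglecF lo, 0.61 (0.40 to 0.82), and lower in *Cd300a-/-* SiglecF hi than in WT SiglecF hi, −0.35 (−0.46 to −0.25). *Top2a*, the topoisomerase that untangles sister chromosomes, was at 6.15, 3.28, 11.7 and 7.32 TPM (165, 97, 537 and 300 counts; ENSMUSG00000020914, chr11:98883769-98915015, minus strand). Its ratio of *Cd300a-/-* to WT was below 0 in both subsets, −0.74 (−1.04 to −0.44) and −0.61 (−0.80 to −0.43). Both genes were higher in SiglecF hi, *Mki67* by 1.99 in WT and 1.03 in *Cd300a-/-* (1.47 and 0.41 centred), and *Top2a* by 0.83 and 0.96 (0.30 and 0.35 centred).

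The 7 genes of spindle and cytokinesis summed to 49.3, 39.3, 67.2 and 45.8 TPM, and all 7 were lower in *Cd300a-/-* SiglecF hi than in WT SiglecF hi, 5 of them past 0.5, where 46.2% of all genes were below 0 and 7.93% past 0.5. *Kif23*, a motor of the central spindle, made the largest part of the sum at 35.4, 29.6, 29.7 and 27.0 TPM (626, 578, 896 and 729 counts; ENSMUSG00000032254, chr9:61823187-61854056, minus strand). Its 4 values were close, and centred on all genes it was lower in SiglecF hi, at −0.77 in WT and −0.74 in *Cd300a-/-*. *Racgap1*, which forms the centralspindlin complex with KIF23, was at 3.04, 4.50, 10.4 and 6.86 TPM (49, 80, 286 and 169 counts). *Racgap1* went with *Mki67* in sign, at 0.44 (0.03 to 0.85) in SiglecF lo and −0.54 (−0.78 to −0.29) in SiglecF hi. *Prc1*, which bundles central spindle microtubules, was at 4.14, 1.67, 7.66 and 1.75 TPM (74, 33, 234 and 48 counts). Its ratio of −1.65 (−1.96 to −1.33) was the lowest of the 40 between the SiglecF hi libraries, and between the SiglecF lo libraries it was −0.94 (−1.36 to −0.52). *Prc1* lies within *Rccd1* of the opposite strand, which had 0, 0, 19 and 31 counts.

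*Kif20a*, another cytokinesis motor, was at 1.35, 0.886, 5.78 and 1.89 TPM (29, 21, 212 and 62 counts), lower in *Cd300a-/-* SiglecF hi by −1.23 (−1.52 to −0.93). The gene shares 2327 bases with *Cdc23* on the opposite strand, which had 82, 121, 284 and 265 counts. *Kif11*, the motor that separates spindle poles, was at 0, 0.915, 3.22 and 1.43 TPM (0, 25, 136 and 54 counts). On the 3-count limit it was at least 7.55-fold higher in *Cd300a-/-* SiglecF lo than in WT SiglecF lo, where it had 0 counts. As for *Plk1*, that bound is no firm minimum. In *Cd300a-/-* SiglecF hi *Kif11* was lower by −0.80 (−1.09 to −0.49). *Tpx2*, an activator of Aurora A, was at 3.92, 1.41, 6.61 and 4.64 TPM (88, 35, 253 and 159 counts), and *Nusap1*, a microtubule bundler, at 1.40, 0.305, 3.89 and 2.27 TPM (29, 7, 138 and 72 counts). Both were lower in *Cd300a-/-* SiglecF lo, at −1.03 (−1.40 to −0.64) and −0.88 (−1.27 to −0.43), the latter −1.88 with 0.1 TPM added in place of 1, and in *Cd300a-/-* SiglecF hi, at −0.43 (−0.68 to −0.19) and −0.58 (−0.89 to −0.27).

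Of the 4 genes that are also used outside the cycle, *Tuba1b*, *Tubb5* and *Hmgb2* were the most deeply counted members together with *Pcna*. *Tuba1b*, an alpha tubulin, was at 242, 159, 424 and 364 TPM (2164, 1569, 6490 and 4989 counts), and *Tubb5*, a beta tubulin, at 81.4, 67.1, 187 and 155 TPM (1233, 1121, 4844 and 3597 counts). *Stmn1*, which destabilizes microtubules, was at 28.8, 15.3, 77.2 and 64.4 TPM (212, 124, 970 and 724 counts). These 3 were ordered alike, with WT SiglecF hi highest and *Cd300a-/-* SiglecF lo lowest. *Stmn1* had the widest genotype difference of the 3 in SiglecF lo, −0.87 (−1.18 to −0.57), followed by *Tuba1b* with −0.60 (−0.70 to −0.51) and *Tubb5* with −0.28 (−0.39 to −0.16). In SiglecF hi the 3 ratios were −0.26, −0.22 and −0.27. Tubulin genes have near-identical copies and pseudogenes, as has *Hmgb2*, so their counts depend on how shared reads were assigned.

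*Hmgb2*, a chromatin protein of dividing and of myeloid cells, was lower in both SiglecF hi libraries than in both SiglecF lo libraries. It was at 352, 320.4, 203 and 214 TPM (4864, 4885, 4798 and 4515 counts; ENSMUSG00000054717, chr8:57964941-57969033, plus strand). The ratio of SiglecF hi to SiglecF lo was −0.79 (−0.85 to −0.73) in WT and −0.58 (−0.64 to −0.52) in *Cd300a-/-*, the only member lower past 0.5 without centring, beside *Kif23* at −0.25 and −0.13, and the genotypes differed by −0.14 in SiglecF lo and 0.07 in SiglecF hi.

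**Figure D2:**
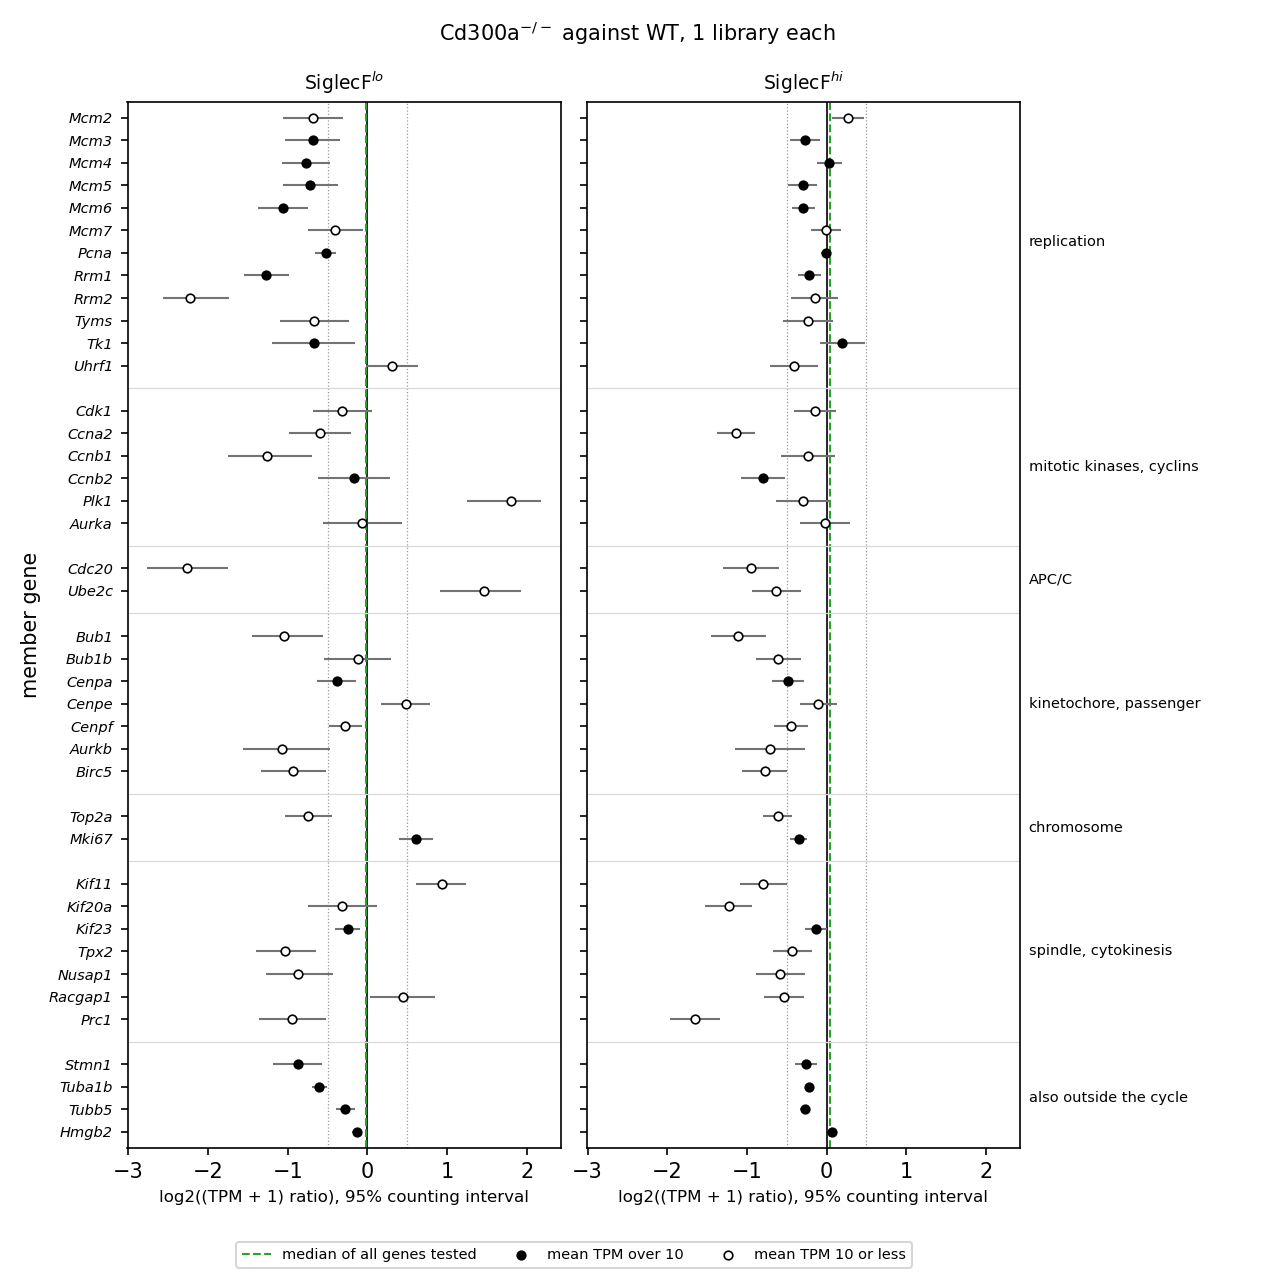
Log2 ratio of TPM + 1 of *Cd300a-/-* to WT for the 40 genes in SiglecF lo (left) and SiglecF hi (right), 1 library each, with 95% counting intervals as lines, filled points for a mean TPM above 10, dotted lines at 0.5 on either side of 0 and a dashed line at the median of all genes tested. Replication genes lie below 0 in SiglecF lo except *Uhrf1*, and near 0 in SiglecF hi, where mitotic genes reach −1.65 for *Prc1*.

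**Figure D3:**
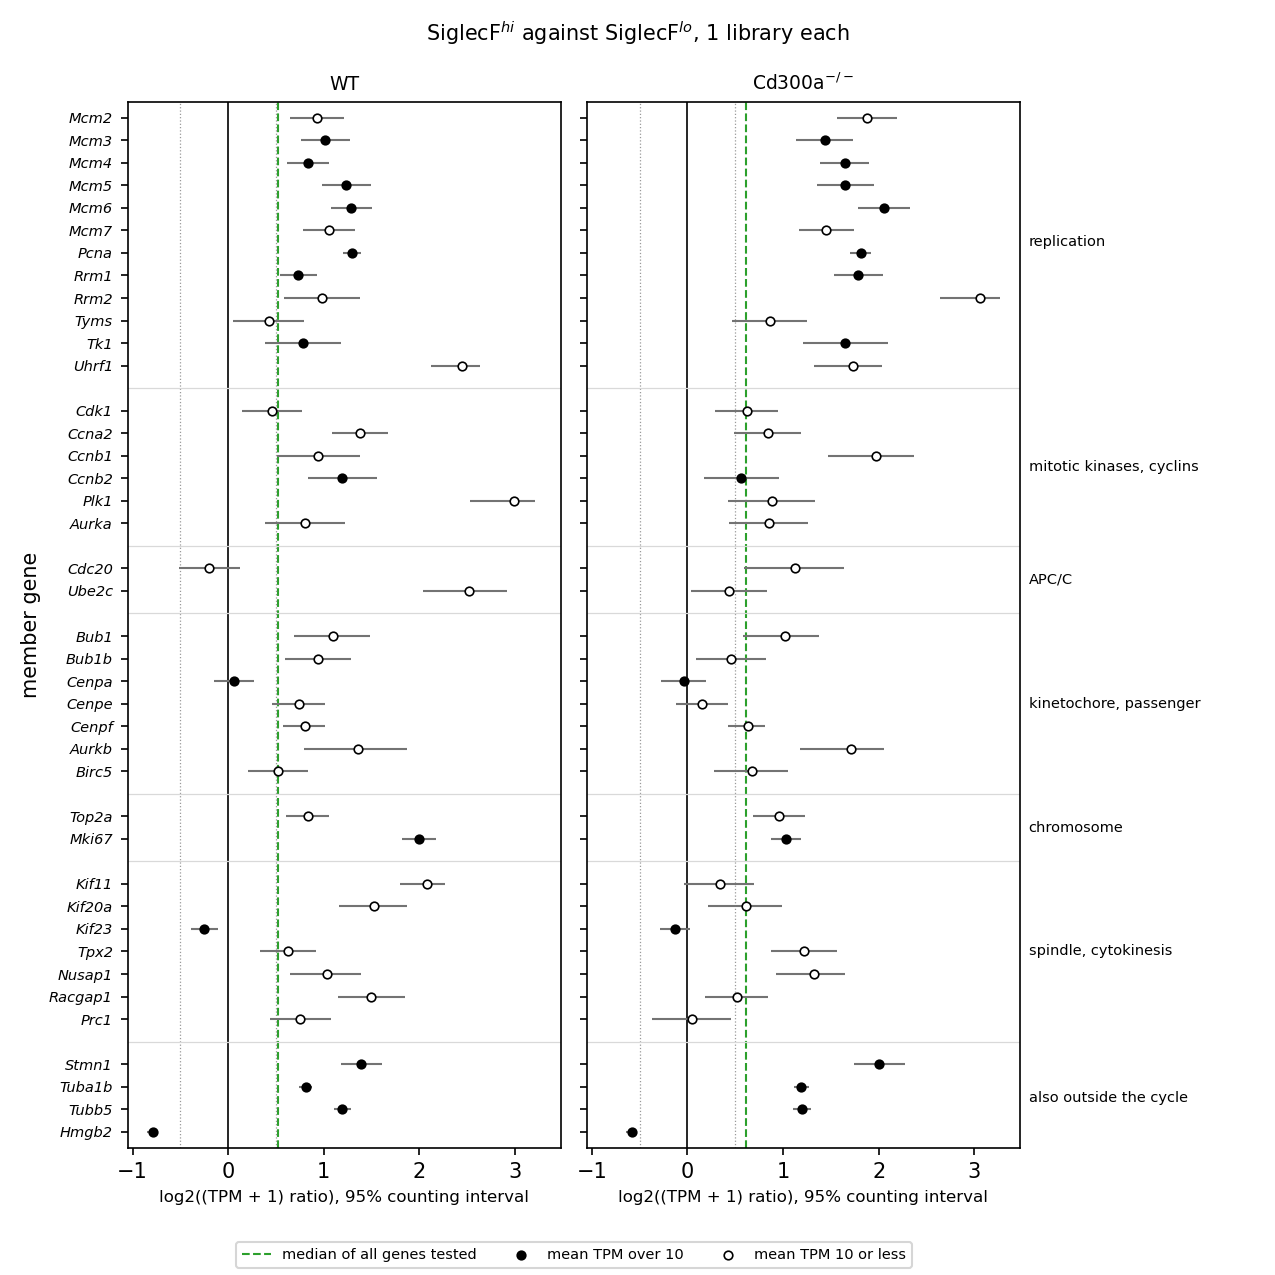
Log2 ratio of TPM + 1 of SiglecF hi to SiglecF lo for the 40 genes in WT (left) and *Cd300a-/-* (right), 1 library each, with 95% counting intervals as lines, filled points for a mean TPM above 10, dotted lines at 0.5 on either side of 0 and a dashed line at the median of all genes tested, 0.53 and 0.61. Most points lie right of the dashed lines, and *Cenpa*, *Kif23* and *Hmgb2* lie left of them in both genotypes.

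Other genes of the same pathways were read to see whether the 40 stood for them. Among all 11472 genes with a mean above 1, as given above, 24.5% were lower and 20.7% higher in *Cd300a-/-* SiglecF lo, 7.93% lower and 7.03% higher in *Cd300a-/-* SiglecF hi, and 54.4% in WT and 57.9% in *Cd300a-/-* higher in SiglecF hi, or 23.6% in each after centring. Of 39 other replication genes 35 had a mean TPM above 1, and 11 of these were lower past 0.5 (31.4%) and 10 higher (28.6%) in *Cd300a-/-* SiglecF lo than in WT SiglecF lo, with a median of −0.02. The lower replication values of *Cd300a-/-* SiglecF lo were thus not shared by that list as a whole. Its most abundant genes were *Gins4*, of the helicase complex, at 16.0, 20.4, 37.9 and 49.5 TPM, and *Rpa3*, which binds single-stranded DNA, at 10.5, 12.4, 31.0 and 39.3 TPM. *Rfc3*, a clamp loader subunit, at 10.9, 1.21, 14.3 and 17.9 TPM and the flap nuclease *Fen1* at 13.2, 2.91, 18.9 and 27.8 TPM had the widest SiglecF lo differences among genes of the list with a mean above 10, −2.44 (−3.03 to −1.78) and −1.86 (−2.26 to −1.45). In SiglecF hi 1 of the 35 was lower in *Cd300a-/-* and 6 were higher (2.86% and 17.1%), with a median of 0.04, and from SiglecF lo to SiglecF hi 23 were higher in WT (65.7%) and 27 in *Cd300a-/-* (77.1%), or 17 and 19 after centring (48.6% and 54.3%).

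Of 41 other mitosis genes 35 had a mean above 1, and their ratios in SiglecF hi leaned the same way as those of the mitotic members. In *Cd300a-/-* SiglecF hi, 10 of the 35 were lower past 0.5 (28.6%, beside 7.93% of all genes) and 0 higher, with a median of −0.23. In *Cd300a-/-* SiglecF lo 11 were lower (31.4%) and 6 higher (17.1%), shares near those of all genes, with a median of −0.21. From SiglecF lo to SiglecF hi 29 were higher in WT (82.9%) and 26 in *Cd300a-/-* (74.3%), or 24 and 16 after centring (68.6% and 45.7%). *Cks2*, a CDK subunit, was the most abundant at 279.6, 183, 347 and 320.1 TPM, with −0.61 (−0.75 to −0.47) between genotypes in SiglecF lo. *Pttg1*, securin, was at 76.4, 62.8, 74.5 and 74.3 TPM, and *Incenp*, of the passenger complex, at 5.69, 4.15, 17.2 and 15.9 TPM.

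All 16 G1 regulators, which govern entry into the cycle, had a mean above 1. In *Cd300a-/-* SiglecF lo 6 were higher past 0.5 (37.5%) and 4 lower (25.0%) than in WT SiglecF lo, and the lower share was near that of all genes. *Ccnd3*, a D-type cyclin of blood cells, was at 144, 224, 76.2 and 79.8 TPM, higher in *Cd300a-/-* SiglecF lo by 0.64 (0.56 to 0.72) and lower in both SiglecF hi libraries. *Ccnd1*, another D-type cyclin, was at 28.9, 10.2, 18.3 and 15.6 TPM, with −1.42 (−1.63 to −1.21) in SiglecF lo. *Cdk4* was at 24.6, 30.5, 63.9 and 54.3 TPM and *Cdk2* at 7.51, 18.2, 15.8 and 16.9 TPM, the latter higher in *Cd300a-/-* SiglecF lo by 1.18 (0.86 to 1.49). In SiglecF hi 1 of the 16 was higher in *Cd300a-/-* and 0 were lower, and from SiglecF lo to SiglecF hi 10 were higher in WT (62.5%) and 8 in *Cd300a-/-* (50%), or 3 in each after centring (18.8%). After centring 6 were lower in SiglecF hi in WT (37.5%) and 7 in *Cd300a-/-* (43.8%), beside 23.9% and 24.7% of all genes.

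Among inhibitors of cyclin-dependent kinases 3 were abundant in every library. Of 7 genes 6 had a mean above 1, and 2 were higher (33.3%) and 1 lower (16.7%) in *Cd300a-/-* SiglecF lo than in WT SiglecF lo, while in SiglecF hi 1 was higher and 0 lower, numbers too small to set against the shares of all genes. *Cdkn1a*, p21, was at 179, 148, 353 and 479 TPM and higher in SiglecF hi by 0.97 in WT and 1.68 in *Cd300a-/-* (0.45 and 1.07 centred). *Cdkn2d*, p19, was at 88.8, 115, 42.9 and 55.7 TPM, and *Cdkn1b*, p27, at 52.9, 83.2, 36.2 and 47.0 TPM, both lower in SiglecF hi. *Cdkn1b* was higher in *Cd300a-/-* SiglecF lo by 0.64 (0.54 to 0.74).

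The repressors that keep cycle genes off in resting cells differed little in sum between genotypes, with 162, 167, 264 and 262 TPM over 14 genes of the RB and DREAM complexes. Of the 13 with a mean above 1, 4 were higher and 4 lower in *Cd300a-/-* SiglecF lo (30.8% each), 0 in either direction in *Cd300a-/-* SiglecF hi, and 11 and 9 were higher in SiglecF hi in WT and in *Cd300a-/-*, or 4 in each after centring (84.6%, 69.2% and 30.8%). *Rbbp4* was at 33.9, 32.1, 63.1 and 63.7 TPM and *E2f4*, a repressing E2F, at 28.0, 21.1, 42.5 and 37.7 TPM. *Lin37*, of the MuvB core, was at 10.4, 5.10, 14.4 and 18.4 TPM, with −0.90 (−1.40 to −0.40) in SiglecF lo, and *Rbl2*, p130, at 13.6, 20.4, 28.4 and 31.4 TPM, with 0.55 (0.37 to 0.74).

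The promoters of the members were searched for letters by which the 2 waves of cycle genes are known, and many windows held none of the E2F or CHR letters. RefSeq promoter windows of 300 bases, 250 before and 50 after the gene start (GRCm38.p6), were found for 34 of the 40 genes, some of which have more than 1 start, and *Aurkb*, *Ccna2*, *Kif20a*, *Mcm4*, *Stmn1* and *Tpx2* had none in the table used here. The cell cycle homology region (CHR), searched as TTTGAA on both strands, was in 16 of 21 windows of the mitotic roles (76.2%) and in 1 of 13 windows of replication genes (7.69%), *Mcm2*, beside 17.9% of 32851 windows of all genes. E2F letters, searched as TTTCCCGC, TTTGGCGC, TTTCGCGC or TTTGCCGC on both strands, were in 5 of 13 replication windows (38.5%) and 1 of 21 mitotic windows (4.76%), beside 2.26% of all windows. CCAAT was in 84.6% and 90.5% of the same windows and in 37.4% of all. A match is a description of letters and not a site shown to be bound, and its part in the expression values was not tested.

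Shown are the windows of the most abundant member outside replication with a CHR match and of the most abundant replication gene with an E2F match, 5′ to 3′ on the strand of the gene, with the matched letters in capitals. The *Hmgb2* window lies at chr8:57511593-57511892 on the plus strand and holds the CHR letters at −218, as the reverse complement, and at −30. The *Mcm6* window lies at chr1:128359656-128359955 on the minus strand and holds 3 E2F matches, at −110, −106 and −47, the first 2 of which overlap.
Hmgb2: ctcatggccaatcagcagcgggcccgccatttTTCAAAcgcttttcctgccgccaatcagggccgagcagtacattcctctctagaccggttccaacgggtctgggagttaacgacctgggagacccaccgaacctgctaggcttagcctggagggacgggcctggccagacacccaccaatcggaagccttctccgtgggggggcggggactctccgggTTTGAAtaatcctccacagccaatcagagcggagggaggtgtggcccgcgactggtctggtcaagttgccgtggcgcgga
Mcm6: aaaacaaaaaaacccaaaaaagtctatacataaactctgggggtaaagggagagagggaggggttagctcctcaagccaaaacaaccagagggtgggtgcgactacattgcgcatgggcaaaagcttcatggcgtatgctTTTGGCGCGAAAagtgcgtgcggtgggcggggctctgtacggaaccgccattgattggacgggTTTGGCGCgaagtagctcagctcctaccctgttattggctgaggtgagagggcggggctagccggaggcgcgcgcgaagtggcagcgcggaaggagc
*Hmgb2* and *Mcm6* lay on opposite sides of 0 in the subset comparison, with −0.79 and 1.29 from SiglecF lo to SiglecF hi in WT. Other members with CHR letters ranged there from −0.25 for *Kif23* to 2.99 for *Plk1*. This pair thus does not stand for windows with CHR or E2F letters.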

How the data were processed

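RNA of sorted cardiac neutrophils, pooled from 8 mice per library, was enriched for poly(A) RNA and sequenced after library preparation with a kit that does not keep strand. The authors mapped and counted reads per gene in CLC Genomics Workbench. The submitters' processing notes name the build GRCm39. The files deposited by the authors give, for each gene, the total count, RPKM, TPM and a column headed CPM. The deposited column headed CPM does not sum to the fixed total of a CPM scale, was taken as a signal of unknown scaling, and was not used, nor was the deposited RPKM. The version of the counter's gene models is not given in the sources used here.

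The members and gene lists were chosen with earlier results of these data known. Log2 ratios of TPM + 1 were computed with Python 3.11.15, numpy 2.4.6, pandas 2.3.3 and scipy 1.17.1, with mean TPM above 10 and a threshold of 0.5. Counting intervals are 95% exact Poisson limits of each count, combined by squaring and adding, and floors are 3 counts per library. Code was tested on simulated data. Alternatives were a pseudocount of 0.1, other filters on low values, a log2 threshold of 1, centring, sums without some members, and TMM scaling of the deposited counts with edgeR 4.0.16 in R 4.3.3. No test was run, since each group had 1 library. Named are all 40 members and, of each pathway list, the 2 genes with the highest mean TPM and the 2 with the largest genotype difference in SiglecF lo among those above 10 TPM, and of each cell type list the most abundant gene and those at 0. Other markers named, such as *Kit*, were chosen after their values were seen. One cell type list is not reported here.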

Additional observations from a re-analysis of the deposited data

Results flagged for a closer look

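For 6 of the 40 members the ratio of *Cd300a-/-* to WT lay above 0 in one subset and below 0 in the other, with both counting intervals apart from 0. The same held for 15.4% of the 11472 genes with a mean TPM above 1, a share close to the 15.0% of the members. The values are the log2 ratio in SiglecF lo minus that in SiglecF hi. *Mcm2* gave −0.94, from −0.68 and 0.27. *Ube2c* gave 2.09, from 1.46 and −0.63, with 8 counts in WT SiglecF lo and an overlap with *Tnnc2*, and *Kif11* gave 1.73, from 0.94 and −0.80, with 0 counts in WT SiglecF lo. Since that count was 0, the *Kif11* ratio in SiglecF lo depends on the amount added, and was 3.34 with 0.1 TPM in place of 1. *Mki67* gave 0.96, from 0.61 and −0.35. *Racgap1* gave 0.98, from 0.44 and −0.54. *Hmgb2* gave −0.21, from −0.14 and 0.07.

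Among the named genes of the pathway lists, *Rfc3* gave −2.74, *Fen1* −2.39 and *Lin37* −1.24, each lower in *Cd300a-/-* SiglecF lo and higher in *Cd300a-/-* SiglecF hi. *Cdkn1a* gave −0.71 with the same directions, and *Cdk4* gave 0.53 with the opposite ones. With 1 library per group the difference between subsets was not tested for any of these genes.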

How the results depend on the processing

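No replicate could be left out, since each group had 1 library, and no paired analysis was run. The sign of the median and of the summed ratio was the same under every alternative run, and no single gene past 0.5 in a genotype comparison changed sign. *Cd300a-/-* against WT in SiglecF lo: the 10 members past the threshold became 26 with a mean TPM above 1 and 26 without a filter, 6 with TPM above 10 in at least 1 of the 2 libraries, 3 with TPM above 10 in both and 2 at a log2 threshold of 1, as other numbers of members were tested or a larger change was asked. The summed ratio of −0.40 became −0.57 without *Stmn1*, *Tuba1b*, *Tubb5* and *Hmgb2*, −0.59 without these and *Pcna* (chosen after seeing the data) and −0.33 on TMM-scaled CPM.

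*Cd300a-/-* against WT in SiglecF hi: the median of −0.26 became −0.30 without a filter. The 1 member past the threshold became 14 with a mean TPM above 1 and 14 without a filter, 5 with TPM above 10 in at least 1 library, 2 after centring and 0 at a threshold of 1. The summed ratio of −0.18 became −0.22 on TMM-scaled CPM, −0.21 centred, −0.23 without *Pcna* and −0.39 without *Pcna* and the 4 broadly used genes.

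SiglecF hi against SiglecF lo in WT: the median of 1.02 became 0.53 on TMM-scaled CPM and 0.49 centred. The 13 members past the threshold became 34 with a mean TPM above 1, 35 without a filter, 7 with TPM above 10 in both libraries and 8 at a threshold of 1. Higher against lower calls were 12 to 1, 8 to 2 on TMM-scaled CPM and 7 to 2 centred. The summed ratio of 0.63 became 0.059 on TMM-scaled CPM and 0.10 centred, 1.07 without the 4 broadly used genes, 0.49 without *Pcna* and 0.88 without all 5.

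SiglecF hi against SiglecF lo in *Cd300a-/-*: the 13 members became 32 with a mean TPM above 1, 33 without a filter and 5 with TPM above 10 in both libraries. Higher against lower calls were 12 to 1, 11 to 3 on TMM-scaled CPM and 10 to 3 centred. The summed ratio of 0.85 became 0.17 on TMM-scaled CPM and 0.24 centred, 1.44 without the 4 broadly used genes, 0.64 without *Pcna* and 1.08 without all 5. Of the 58 members and named genes, a pseudocount of 0.1 TPM moved 13 beyond their counting interval between genotypes in SiglecF lo, 5 in SiglecF hi, and 10 in WT and 11 in *Cd300a-/-* between subsets, each further from 0. Among genes past 0.5, centring turned the sign of *Birc5* in WT to −0.0019, and in *Cd300a-/-* that of *Ccnb2* to −0.0485, *Racgap1* to −0.10, *Ccnd1* to −0.0421 and *Rbl2* to −0.0123. Of members at 0.5 or less it also put *Tyms*, *Cdk1* and *Cenpa* in WT and *Ube2c*, *Bub1b*, *Cenpe*, *Kif11* and *Prc1* in *Cd300a-/-* below 0. By their construction centring and the filters move these values, and what else moved them was not tested. Depth limits the SiglecF lo libraries most, where the median member had 77.5 counts in WT and 55 in *Cd300a-/-*.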
